A study of Bos taurus with 111 samples.

Results

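ZFP36, ZC3H12A and BTG2 encode proteins that shorten the life of messenger RNA, and their transcripts were followed here in skeletal muscle of steers. The 3 genes were chosen by their Ensembl identifiers (ENSBTAG00000008573, ENSBTAG00000011316 and ENSBTAG00000015711) out of 24616 genes counted in each library, and all 3 were measured and passed the filter on low counts in every comparison. Of the muscle libraries 104 were used and 7 were not, namely 6 libraries with under 1000000 counts on genes and the library of 1 H-RFI steer of CH-ZG (steer 571), which held ALB, the liver albumin transcript, at 101449 CPM (counts per 1000000 counts on genes). All 3 genes stand in a list that the study drew from these same samples for the joint effect of breed and diet, BTG2 also in its CH-H1 list and ZC3H12A in its HF-ZG list, so they are not an independent choice.

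A messenger RNA is usually destroyed after its poly(A) tail has been removed, and the rate of this step differs between transcripts. ZFP36, also called tristetraprolin, is a zinc finger protein that binds AU-rich elements in messenger RNAs of cytokines and growth regulators and recruits the CCR4-NOT deadenylase. ZC3H12A, also called Regnase-1, is an endonuclease that cuts stem-loops in inflammatory messenger RNAs. BTG2 is an antiproliferative protein of the BTG and TOB family that binds the deadenylase and speeds tail removal, and all of these genes are themselves transcribed within minutes of growth factor, stress or inflammatory signals.

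The longissimus muscle of steers of the Charolais breed (CH) and of the Holstein Friesian breed (HF) was biopsied after each of 3 feeding phases of 70 days, namely a high concentrate diet (H1), then zero-grazed grass (ZG), and then the high concentrate diet again (H2). By the labels, mean age at the start was 283 days in CH and 306 days in HF, and since the phases followed each other in every steer, diet, age and season cannot be told apart. Steers were classed as low (L-RFI, feed efficient) or high (H-RFI, inefficient) for residual feed intake within each breed and phase. For CH the used libraries were 10 H-RFI and 8 L-RFI under H1, 8 H-RFI and 9 L-RFI under ZG, and 7 of each class under H2. For HF they were 11 H-RFI and 9 L-RFI under H1, 10 H-RFI and 9 L-RFI under ZG, and 8 of each class under H2. They came from 77 steers, of which 52 were sampled in 1 phase, 23 in 2 and 2 in 3, and 8 steers changed RFI class between phases. Each library held between 2201765 and 52552057 counts on genes (median 15852126), so that 3 counts, taken as the floor, corresponded to 1.36 CPM in the shallowest library and 0.0571 CPM in the deepest. The table that paired identifiers with symbols named 0 of 12 muscle marker genes, so the labelled tissue could not be checked by them.

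In these biopsies the mean log2 CPM after TMM scaling between libraries was highest under ZG for all 3 transcripts in both breeds. That of ZC3H12A and BTG2 was lowest under H2. The medians and ranges of CPM given below are without this scaling. ZFP36 had a median of 38.8 CPM in CH-H1 (lowest 23.7, highest 90.3), 57.5 CPM in CH-ZG (16.2 to 139) and 28.3 CPM in CH-H2 (11.6 to 38.9). In HF its median was 34.9 CPM in H1 (19.8 to 68.3), 52.2 CPM in ZG (20.6 to 191) and 27.6 CPM in H2 (18.02 to 62.6). The ZG libraries thus held both low and very high values of this gene, while H1 and H2 were narrower.

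ZC3H12A was a low-count transcript, with 0 to 392 reads per library. Its median in CH was 3.31 CPM in H1 (1.43 to 7.16), 2.91 CPM in ZG (1.72 to 13.8) and 1.94 CPM in H2 (0 to 5.47), where the 0 came from the shallowest library (L-RFI steer 856) and allows up to 1.36 CPM. In HF the medians were 3.81 CPM in H1 (2.30 to 7.79), 4.65 CPM in ZG (1.44 to 16.7) and 1.74 CPM in H2 (0.808 to 4.28). In CH the median under ZG lay below that under H1, and 3 of 17 ZG libraries lay above the highest H1 library. The ZG library held the higher CPM in 48.4% of all pairs of a ZG and an H1 library.

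BTG2 varied most. Its median in CH was 14.8 CPM in H1 (4.304 to 88.3), 29.4 CPM in ZG (5.07 to 292) and 4.80 CPM in H2 (1.26 to 25.9). In HF it was 16.9 CPM in H1 (4.79 to 122), 34.6 CPM in ZG (6.96 to 379) and 4.67 CPM in H2 (2.28 to 34.4). The highest ZG library held 57.6 times the lowest in CH and 54.5 times in HF. After the means of the 12 groups were removed, BTG2 had a standard deviation of 1.37 on the log2 scale over the 104 libraries, which ranked 127 of 10291 genes, against 0.81 for ZC3H12A, 0.65 for ZFP36 and 0.61 for the median gene.

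**Figure D1:**
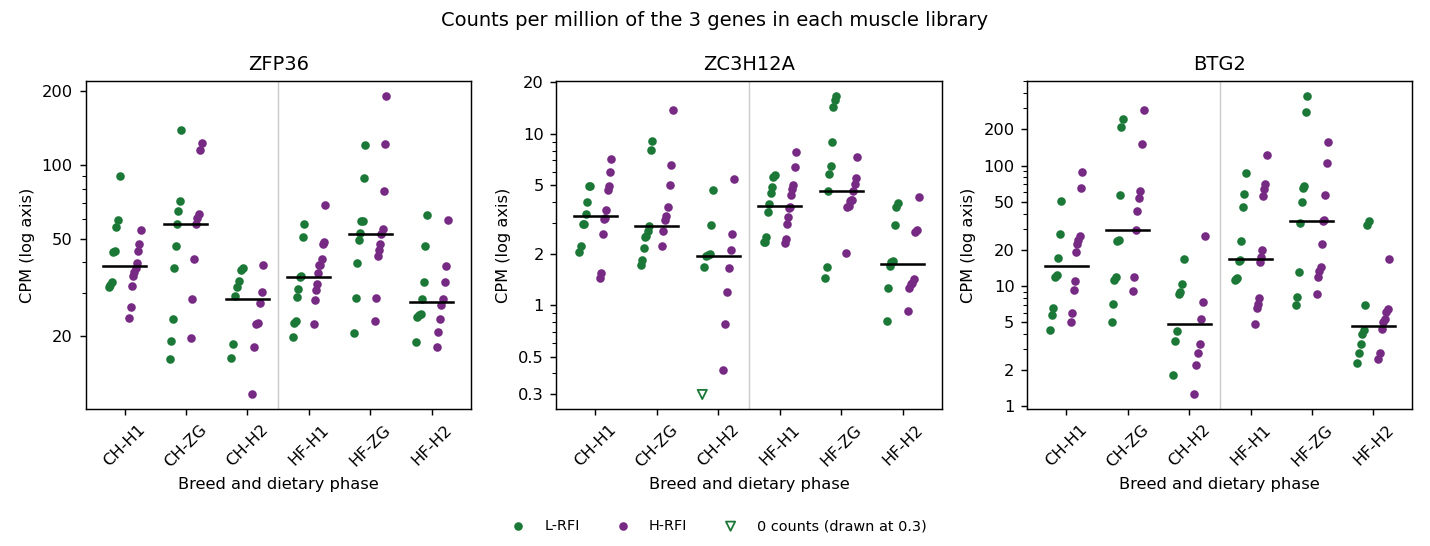
CPM of ZFP36, ZC3H12A and BTG2 (log axis) in each of the 104 libraries by breed and dietary phase, with L-RFI and H-RFI steers as separate points and black lines at the group medians. BTG2 medians were 29.4 and 34.6 CPM under ZG and 4.80 and 4.67 CPM under H2, and the L-RFI and H-RFI points overlap in every group.

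Ordered by mean log2 CPM after TMM scaling, BTG2 was highest in CH-ZG (5.34 ± 1.62, SD) and HF-ZG (5.10 ± 1.68). Next came HF-H1 (4.27 ± 1.44) and CH-H1 (3.83 ± 1.16), and then HF-H2 (2.73 ± 1.03) and CH-H2 (2.48 ± 0.95). The step from CH-H1 to HF-H2 was 1.10 and equalled the mean SD of the 2 groups, and the other neighbours lay within their spread. For ZFP36 the ZG groups again led (5.80 ± 0.86 in CH and 5.69 ± 0.89 in HF) and CH-H2 came last (4.76 ± 0.49). For ZC3H12A the order was HF-ZG (2.33 ± 0.90), CH-ZG, HF-H1, CH-H1, HF-H2 and CH-H2 (0.72 ± 1.404), and no neighbours in the order of either gene differed by more than their spread. The ZC3H12A mean and SD of CH-H2 include the library at 0 counts (steer 856). By median CPM without scaling CH-H2 (1.94) lay above HF-H2 (1.74).

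From ZG to H2 all 3 genes fell in both breeds. Differences between phases were taken from 1 limma voom model of all 104 libraries with TMM scaling and the steer as a random effect, and a gene was called at a Benjamini-Hochberg adjusted p below 0.1 over 10291 genes with a change of more than 1.5-fold. In CH, 3 of 3 genes were called lower, where 0.962% of all genes were called lower and 1.11% in either direction. BTG2 fell by 2.88 on the log2 scale (SE 0.52, adjusted p = 0.000257), ZC3H12A fell by 1.15 (SE 0.27, adjusted p = 0.0120) and ZFP36 fell by 1.04 (SE 0.22, adjusted p = 0.00389). In HF 3 of 3 were called lower as well, where 6.09% of all genes were called lower and 7.01% in either direction. There BTG2 fell by 2.45 (SE 0.48, adjusted p = 0.000395), ZC3H12A fell by 1.21 (SE 0.25, adjusted p = 0.000695) and ZFP36 fell by 0.61 (SE 0.21, adjusted p = 0.0546).

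The groups overlapped all the same. For BTG2, 9 of 17 CH-ZG libraries and 10 of 19 HF-ZG libraries lay above the highest H2 library of their breed, and all 14 CH-H2 and all 16 HF-H2 libraries lay below the ZG median. For ZFP36 the numbers above the highest H2 library were 11 of 17 in CH and 5 of 19 in HF, and for ZC3H12A 4 of 17 and 11 of 19. The ZFP36 call in HF was the least firm, since it was lost under 4 other settings. It was also lost without any 1 of 9 libraries, judged by the p cutoff of the whole fit and the 1.5-fold bound. The largest move was without H-RFI steer 2242 of HF-ZG, which held the highest ZFP36 value (191 CPM) and without which the gene fell by 0.47. The ZC3H12A call in CH was lost without TMM scaling (−1.05, adjusted p = 0.156), and the BTG2 calls held under each of the other settings run.

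**Figure D2:**
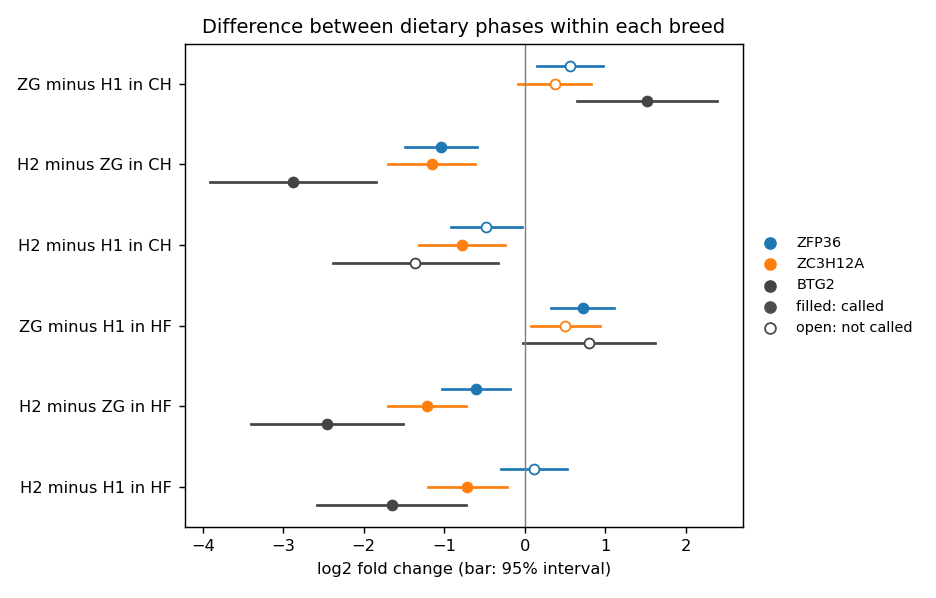
Log2 fold change between dietary phases within each breed from the model of 104 libraries (points, with 95% intervals as bars), filled where the gene was called. All 3 genes are filled and left of 0 in both H2 minus ZG comparisons, with BTG2 at −2.88 in CH and −2.45 in HF.

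Steers sampled in both phases allowed the same difference to be taken within an animal, a comparison added after the phase differences had been seen. In 7 such steers, 5 CH and 2 HF, BTG2 under ZG and H2 was 379 and 34.4 CPM (steer 5612), 208 and 3.47 CPM (steer 310), 150 and 2.19 CPM (steer 1484), 104 and 6.03 CPM (steer 1639), 41.6 and 10.4 CPM (steer 307), 11.9 and 3.27 CPM (steer 1100) and 7.03 and 4.23 CPM (steer 1492). It was higher under ZG in 7 of 7 steers, by a mean of 3.39 on the log2 scale (SD 1.63, two-sided exact sign-flip permutation p = 0.0156, the smallest that 7 steers allow). ZC3H12A was higher under ZG in 6 of 7 steers (mean 0.99, SD 0.94, exact permutation p = 0.0469) and ZFP36 in 5 of 7 (mean 0.75, SD 1.11, exact permutation p = 0.125). On CPM without TMM scaling the counts were 7, 5 and 4 of 7 steers, and the ZC3H12A difference then had an exact permutation p of 0.109.

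**Figure D3:**
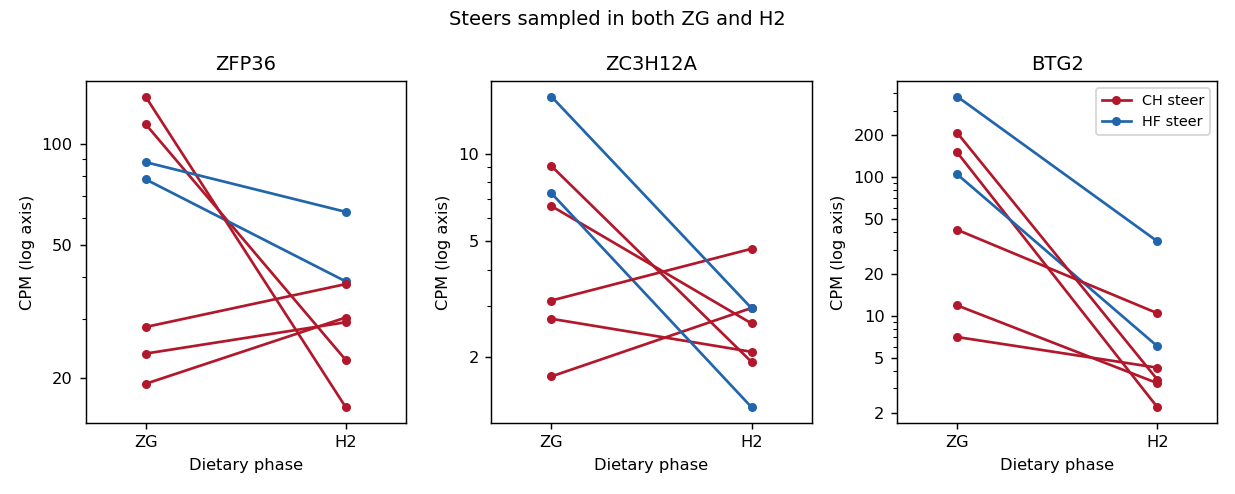
CPM (log axis) of the 3 genes under ZG and under H2 in the 7 steers sampled in both phases, each line being 1 steer, coloured by breed. BTG2 falls in every line, ZC3H12A in 5 and ZFP36 in 4.

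From ZG to H2 BTG2 moved further than the other genes. The log2 ratio of ZFP36 to BTG2 within a library, which no scaling touches apart from the small prior count, was 0.46 ± 1.35 (SD, n = 17) in CH-ZG and 2.27 ± 0.96 (n = 14) in CH-H2, a difference, ZG minus H2, of −1.82 (two-sided permutation p = 0.00034, adjusted p = 0.00153 over 18 ratio comparisons). In HF it was 0.59 ± 1.1999 (n = 19) under ZG and 2.35 ± 0.78 (n = 16) under H2 (permutation p = 4.0e-05, adjusted p = 0.00072). The ratio of ZC3H12A to BTG2 differed in the same direction, by −1.48 in CH (permutation adjusted p = 0.00666) and −1.201 in HF (permutation adjusted p = 0.00382), while that of ZFP36 to ZC3H12A differed by −0.34 in CH (permutation adjusted p = 0.499) and −0.56 in HF (permutation adjusted p = 0.0345). These tests treat libraries as independent although 7 steers occur in both phases, and the ZC3H12A ratios of CH-H2 include the library at 0 counts.

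From H1 to ZG the log2 changes of BTG2 and ZC3H12A in both breeds, and of ZFP36 in CH, were smaller than from ZG to H2. That of ZFP36 in HF was not (0.72 against −0.61). In CH, 1 of 3 genes was called (background 2.4% of genes, 0.972% called higher), namely BTG2, which rose by 1.52 (SE 0.44, adjusted p = 0.0352). In HF, 1 of 3 was called (background 0.69%, 0.457% higher), namely ZFP36, which rose by 0.72 (SE 0.20, adjusted p = 0.0495). The others had log2 differences of 0.56 for ZFP36 (adjusted p = 0.111) and 0.37 for ZC3H12A (adjusted p = 0.317) in CH, and of 0.80 for BTG2 (adjusted p = 0.538) and 0.50 for ZC3H12A (adjusted p = 0.379) in HF. The ZFP36 call in HF was lost without steer 2242 (0.59) and without TMM scaling (0.56). In CH the values without TMM scaling were 1.17 for BTG2, still called, 0.22 for ZFP36 and 0.04 for ZC3H12A. Within the 11 steers sampled in both phases BTG2 was higher under ZG in 7 (mean 0.74, exact permutation p = 0.121), ZFP36 in 8 (mean 0.17, exact permutation p = 0.415) and ZC3H12A in 4 (mean 0.03, exact permutation p = 0.921). Without TMM scaling the last 2 means were below 0, at −0.20 and −0.29.

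Between the 2 concentrate phases ZC3H12A and BTG2 had lower values in H2 than in H1 in both breeds. In HF, 2 of 3 genes were called (background 16.3% of genes, 13.7% called lower): BTG2 fell by 1.65 (SE 0.47, adjusted p = 0.00708) and ZC3H12A fell by 0.71 (SE 0.24, adjusted p = 0.0272), while ZFP36 had a difference of 0.12 (adjusted p = 0.689) that turned to −0.30 without TMM scaling. The log2 differences in HF were then −2.14 for BTG2 and −1.14 for ZC3H12A. In CH, 1 of 3 was called (background 2.72%, 2.32% lower), ZC3H12A, which fell by 0.78 at an adjusted p of 0.0991. This call was lost under 7 of 9 other settings. By p in the limma voom model the gene ranked 452, and 455 genes had an adjusted p under 0.1, so it lay next to the cutoff. Without any 1 of 64 of the 104 libraries its p passed that cutoff, which was kept from the whole fit. BTG2 had a log2 difference of −1.36 there (adjusted p = 0.150) and ZFP36 of −0.47 (adjusted p = 0.286). Within the 11 steers sampled in both phases BTG2 was lower in H2 in 10 (mean −1.72, SD 1.64, exact permutation p = 0.00488) and ZC3H12A in 8 (mean −0.90, exact permutation p = 0.0273). Without steer 856, whose H2 library held 0 ZC3H12A counts, the ZC3H12A mean was −0.56 over 10 steers (exact permutation p = 0.0547) and that of BTG2 −1.65 (exact permutation p = 0.00977). ZFP36 was lower in 6 of these 11 (mean −0.13, exact permutation p = 0.621), but on CPM without TMM scaling in 10 of 11 (mean −0.52, exact permutation p = 0.0107).

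The breeds were compared within each phase in the same model. Of the 3 genes, 0 were called in H1, ZG or H2, where 0.262%, 1.69% and 0.223% of genes were called, and 0 of the 9 unadjusted p-values lay below 0.05, where 7.23%, 16.4% and 8.29% of genes had one. The log2 differences, HF minus CH, ranged from −0.27 for ZFP36 in H1 to 0.45 for BTG2 in H1. The widest 95% interval was that of BTG2 in H2, from −0.96 to 1.27, so that a difference of more than 2-fold could not be told from none.

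The joint effect of breed and diet was tested by the 2 interaction terms of the model. For ZFP36 the change from H1 to H2 was −0.47 in CH and 0.12 in HF, and the change from H1 to ZG was 0.56 and 0.72 (F test p = 0.139, adjusted p = 0.935). For BTG2 the changes from H1 to ZG were 1.52 in CH and 0.80 in HF and those from H1 to H2 −1.36 and −1.65 (F test p = 0.486, adjusted p = 0.935), and for ZC3H12A the F test p was 0.919 (adjusted p = 0.982). Of the 3 genes 0 were called, as were 0% of all 10291 genes by limma voom, with 547 genes (5.32%) at an unadjusted p under 0.05. The edgeR quasi-likelihood test without the steer term called 1 gene of all and 0 of the 3. With sample quality weights 3234 genes were called but again 0 of the 3, whose adjusted p-values were 0.355 to 0.688.

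The RFI classes were compared within each breed and phase by edgeR's quasi-likelihood test, with 7 to 11 steers a class. In HF-ZG, ZC3H12A in L-RFI steers ran from 1.44 CPM over a median of 6.45 to 16.7, against 2.01, 4.11 and 7.31 CPM in H-RFI steers, so that 4 L-RFI steers lay above and 2 below every H-RFI steer. Its log2 fold change was 1.07 (SE 0.36, unadjusted p = 0.00731, adjusted p = 0.381), and the exact permutation test of log2 CPM gave a p of 0.0437 before any correction for 18 such tests. BTG2 in HF-ZG ran from 6.96 over 49.9 to 379 CPM in L-RFI and from 8.53 over 28.4 to 158 CPM in H-RFI steers, with a log2 fold change of 0.89 (SE 0.69, adjusted p = 0.442) that ran from 0.40 without L-RFI steer 5612 to 1.64 without H-RFI steer 2242. ZFP36 in HF-ZG had medians of 52.5 and 49.9 CPM, and its log2 fold change of −0.30 (SE 0.42, adjusted p = 0.648) turned to 0.23 without H-RFI steer 2242. Of the liver markers measured here, 6 of 6 were lower in L-RFI steers (median log2 fold change −2.32, 5 with an unadjusted p under 0.05). In HF-ZG 11.6% of all genes had such a p. Of the leukocyte markers 7 of 8 were lower (median −1.05, 2 with an unadjusted p under 0.05), and 0 of either list were called, as were 0% of all genes. These markers had a symbol only through lists that the study selected on these same samples, so their counts are not independent evidence. The leukocyte sum ran from 4.09 over 9.07 to 43.8 CPM in L-RFI and from 6.42 over 34.0 to 190 CPM in H-RFI steers, and its part in the values of the 3 genes was not tested. Without H-RFI steer 5616, which held ALB at 8576 CPM, the log2 fold change of ZC3H12A was 1.02.

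In CH-H1, BTG2 ran from 4.304 over 12.2 to 50.7 CPM in L-RFI and from 5.04 over 20.9 to 88.3 CPM in H-RFI steers, with a log2 fold change of −0.78 (SE 0.51, unadjusted p = 0.137, adjusted p = 0.999). Leaving out 1 steer at a time moved this value between −1.203 and −0.30. ZFP36 had medians of 44.3 and 37.2 CPM there, with a log2 fold change of 0.31 (SE 0.17, adjusted p = 0.999). In both of these genes the classes overlapped over most of their range. The log2 fold changes of the other comparisons lay between −0.33 and −0.06 (CH-ZG), 0.20 and 0.30 (CH-H2), 0.10 and 0.30 (HF-H1), and 0.09 and 0.78 (HF-H2), and those of HF-H1 turned to between −0.23 and −0.11 without TMM scaling.

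Over the 6 RFI comparisons 0 of the 3 genes were called in any, where 0% of genes were called in each by the quasi-likelihood test and 72 (HF-H2) to 1228 (HF-ZG) genes had an unadjusted p under 0.05. Of the 18 values for the 3 genes 1 had an unadjusted p under 0.05, in HF-ZG, where 11.6% of genes had one (2.04%, 0.804% and 0.884% for CH under H1, ZG and H2, and 2.93% and 0.725% for HF under H1 and H2), and 0 were called by edgeR's exact test or by DESeq2, which called 0 to 2 genes of all in a comparison. Whether the RFI effect differed between the comparisons was tested in the model of all libraries by an F test of 5 terms, with p = 0.170 for ZC3H12A, 0.486 for BTG2 and 0.896 for ZFP36 (adjusted p = 1.000 for each). This F test covers all 6 comparisons together. The lower values of BTG2 in L-RFI steers of CH-H1 and the higher ones in HF-ZG were not compared on their own.

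**Figure D4:**
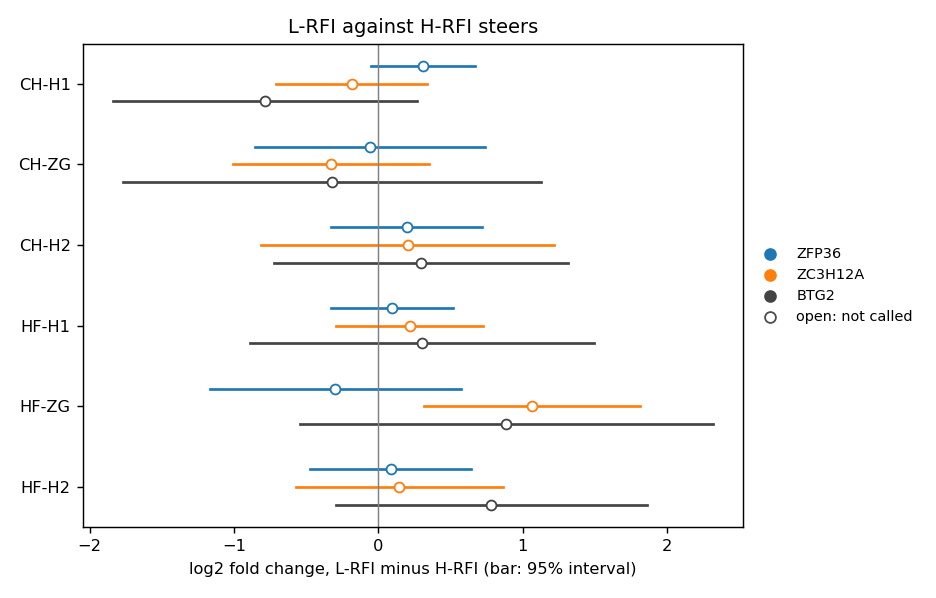
Log2 fold change of L-RFI against H-RFI steers for the 3 genes in each breed and phase by edgeR's quasi-likelihood test, with 95% intervals as bars. No point is called, and the interval of ZC3H12A in HF-ZG, around 1.07, is the one that leaves out 0.

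Among steers of 1 breed and phase the 3 transcripts varied together in some groups and not in others. For ZC3H12A and BTG2 Pearson's r of log2 CPM was 0.84 in CH-ZG (n = 17, Spearman's rho 0.79), 0.81 in HF-H1 (n = 20, rho 0.88) and 0.80 in HF-ZG (n = 19, rho 0.85), with permutation p-values adjusted over 18 relations of 0.00042, 0.00027 and 0.00027. Without the 2 steers farthest from the ZC3H12A median, which also narrows the range of that gene, these became 0.79, 0.77 and 0.86. In HF-H2 r was 0.55 (n = 16, rho 0.50) and 0.52 without 2 steers, with adjusted permutation p-values of 0.0412 for r and 0.0920 for rho. In CH-H1 it was 0.53 (n = 18, rho 0.40, adjusted permutation p = 0.0412 and 0.151) and fell to 0.16 without 2 steers. Leaving out any 1 steer there gave 0.31 to 0.59. In CH-H2, which includes the library at 0 ZC3H12A counts, it was 0.47 (n = 14, rho 0.42, adjusted permutation p = 0.125 and 0.187) and 0.23 without 2 steers.

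ZFP36 went with BTG2 under grass and in the finishing HF steers. Its r with BTG2 was 0.73 in HF-ZG (rho 0.75, adjusted permutation p = 0.00112 for r) and 0.67 in HF-H2 (rho 0.66, adjusted permutation p = 0.0122). In CH-ZG it was 0.55 (rho 0.44, adjusted permutation p = 0.0412 and 0.133). These became 0.71, 0.60 and 0.40 without the 2 steers farthest from the ZFP36 median. In CH-H1, CH-H2 and HF-H1 it was 0.16 to 0.23, with rho between 0.05 and 0.19, and −0.25, 0.31 and −0.29 without 2 steers. Its r with ZC3H12A was 0.63 in CH-ZG (rho 0.60), 0.65 in HF-ZG (rho 0.78) and 0.63 in HF-H2 (rho 0.58), each with an adjusted permutation p under 0.05, and 0.12 to 0.45 in the others (rho 0.24 to 0.53). In all, 11 of 18 relations had an adjusted p under 0.05 by r and 8 by rho. Whether r differed between phases was not tested, and the points of a group share the scaling of their libraries.

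**Figure D5:**
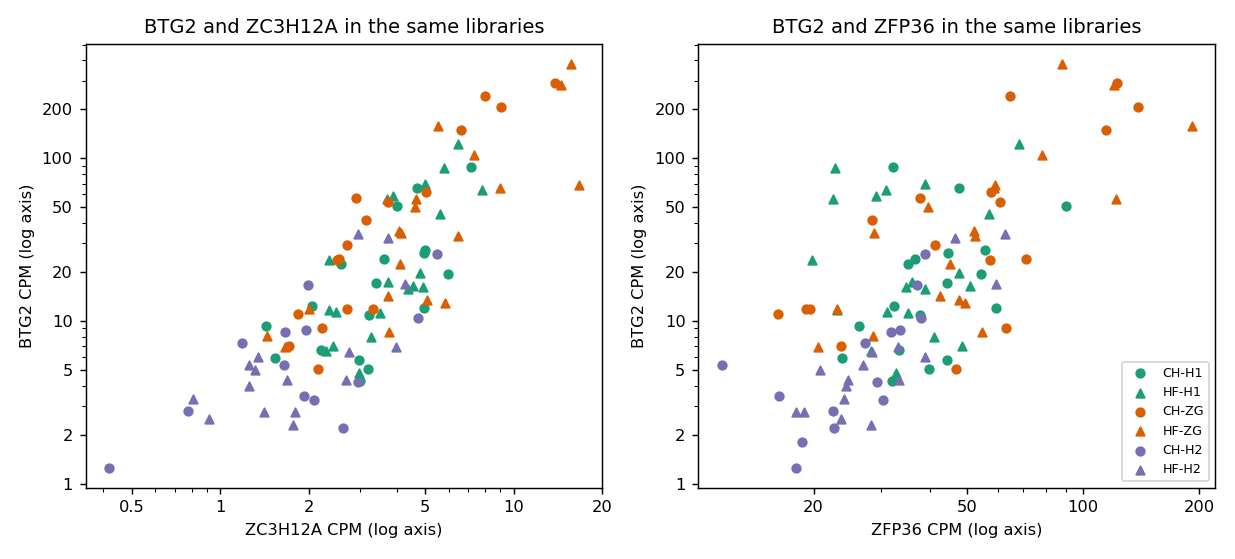
BTG2 against ZC3H12A (left) and against ZFP36 (right) in the same libraries, CPM on log axes, coloured by dietary phase with CH as circles and HF as triangles. The 1 library without ZC3H12A counts is left out on the left, and the ZG libraries reach the highest values of all 3 genes.

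The genes most like the 3 were sought among 10290 others by Pearson's r over the 104 libraries after the means of the 12 groups were removed, and are given as a description. For BTG2 the 5 highest were ENSBTAG00000047752 (r = 0.88) and ENSBTAG00000008545 (0.83), which had no symbol in the table used, NR4A2 (0.83), NR4A1 (0.82) and FOS (0.79), the NR4A genes being orphan nuclear receptors and FOS a subunit of the AP-1 transcription factor. For ZFP36 they were ENSBTAG00000006933 (0.74), JUN (0.74), JUNB (0.71), ENSBTAG00000016874 (0.71) and FOSB (0.67), of which JUN, JUNB and FOSB are AP-1 subunits. For ZC3H12A they were ENSBTAG00000012510 (0.65), ENSBTAG00000039764 (0.63), MIDN (0.63), BTG2 (0.62) and ENSBTAG00000002144 (0.60). The median gene had an r of 0.02 with BTG2, −0.04 with ZFP36 and 0.03 with ZC3H12A. Immediate early genes were not all alike in this. Over the 14 described below, r with BTG2 ran from −0.40 (NFKBIA) to 0.83 (NR4A2). With ZFP36 it ran from −0.16 (GADD45A) to 0.74 (JUN), and with ZC3H12A from −0.20 (NFKBIA) to 0.58 (NR4A1).

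Of 30 other immediate early genes listed, 14 had a symbol in the table, and since that table holds genes the study selected on these samples, their counts are not independent evidence. From ZG to H2 in CH, 11 of the 14 were called lower and 0 higher, where 0.962% of all genes were called lower. The median log2 difference of the 14 was −1.63 against −0.02 over all genes. Among those called, JUN fell by 1.78 (SE 0.25), NR4A1 fell by 1.70 (SE 0.27) and FOS fell by 4.10 (SE 0.68). In HF, 10 of 14 were called lower and 0 higher, where 6.09% of all genes were called lower. The median there was −1.25 against −0.05 over all genes. From H1 to ZG 5 of 14 were called higher in CH and 4 in HF (background 0.972% and 0.457% called higher), and 0 lower. GADD45A, CCN2 and NFKBIA, an inhibitor of NF-kappaB, were not called in any of these 4 comparisons and are named after their values were seen. From H1 to H2 in CH, 1 of 14 was called lower and 0 higher, where 2.32% of all genes were called lower. In HF, 5 of 14 were called lower and 1 higher, where 13.7% of all genes were called lower and 265 of 10291 higher. In the 6 RFI comparisons 0 of the 12 to 14 tested were called, and 0 of 14 in the interaction. In each of these tests 0% of all genes were called. Of 105 genes listed for ZFP36, Regnase and BTG families, deadenylases, decapping, exosome, nonsense-mediated decay and their regulators and targets, the 3 described here were the only ones with a symbol in the table, so the rest of the decay machinery was not analysed here.

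Marker transcripts of other cells were measured in the same libraries. Their symbols too came from lists that the study selected on these samples, so their counts are not independent evidence. A biopsy is a bulk sample, in which fewer cells of a type and less RNA per cell cannot be told apart. Of 12 leukocyte markers 8 had a symbol, and the median of their sum was 13.4 CPM under H1, 5.58 CPM under ZG and 8.20 CPM under H2 for CH steers, and 23.6, 16.6 and 9.43 CPM for HF steers. From ZG to H2, where the 3 genes fell in both breeds, this sum was thus higher in CH and lower in HF, and 2 of 6 tested markers had a positive difference in CH and 0 of 6 in HF (median log2 difference −0.13 and −0.23). Its part in the result was not tested. Of the 6 leukocyte and 6 liver markers tested, 0 were called in any phase comparison, where 0.69% to 16.3% of all genes were called. Both adipocyte markers tested (CIDEC and FABP4) were called higher in HF from ZG to H2 (1.34 and 1.21) and from H1 to H2 (2.43 and 2.11). In these comparisons 94 and 265 of 10291 genes were called higher, and BTG2 and ZC3H12A were called lower. In CH both markers had positive differences in the same 2 comparisons (median log2 difference 1.07 and 1.12), but 0 were called. The HF-ZG library of H-RFI steer 5616 held ALB at 8576 CPM, and without it the falls from ZG to H2 in HF were 2.47 for BTG2, 1.26 for ZC3H12A and 0.63 for ZFP36. The median TMM factor under H1, ZG and H2 was 1.12, 0.90 and 1.01 for CH and 1.26, 1.09 and 0.92 for HF, and without this scaling the median log2 difference of all genes moved from −0.05 to −0.37 for ZG minus H1 in CH, from −0.05 to −0.34 for H2 minus ZG in HF and from −0.07 to −0.49 for H2 minus H1 in HF, and the fall of BTG2 from ZG to H2 was then 2.79 in CH and 2.74 in HF.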

How the data were processed

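The authors trimmed reads of stranded poly(A) libraries, aligned them with STAR (2.5.1 per the labels) and counted single-end reads per gene, and the deposited values are raw counts, unstranded and per strand. The reverse-strand counts were used, a median of 99.0% of stranded counts. The genome build is given as ARS-UCD1.2 in the study's methods and as UMD3.1 in the submitters' processing notes, so no coordinates are printed. Symbols came from the study's supplementary gene lists, which named 151 identifiers of the files. STAR counts only uniquely mapped reads, so reads shared with near-identical copies are missing.

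Here CPM is a count per 1000000 counts on genes. Genes with at least 1 CPM in 50% of libraries were tested with edgeR 4.0.16 (quasi-likelihood) for RFI and limma 3.58.1 (voom, steer as random effect, consensus correlation 0.13) for breed, phase and interaction, both with TMM factors (0.49 to 1.56) and Benjamini-Hochberg adjustment. Steer numbers were read from the titles. A planned description of promoter and protein sequences could not be run, as no sequence tables were given. Nothing in the labels pairs replicate numbers other than the steer. Scripts were tested on simulated data without a steer effect. The limma voom model was fitted there without the steer term, so that term was not tested. Alternatives included DESeq2 1.42.0, RLE factors, filters, unstranded counts, all libraries including the 7 left out, and leaving out libraries; those without TMM, within steers and on ratios were added after seeing the data. Log2 CPM for correlations and permutation tests used TMM and a prior count of 2. Intervals and floors cover counting or sampling error only. Named genes were the 3 members in every comparison, the 5 most alike of each, and up to 3 called members of each gene list. The 3 genes, the lists and the tests were chosen with earlier results of these data known.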

Additional observations from a re-analysis of the deposited data

Results flagged for a closer look

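In 33 pairs of group and gene with 4 to 10 libraries, 5 had a highest steer far from the rest by Dixon's test of CPM at 95%. The test assumes normally distributed values, for which chance flags about 1 in 20. CPM had a long upper tail (BTG2 in CH-ZG L-RFI had a mean of 65.5 and a median of 23.8), so that share does not apply here. BTG2 reached 25.9 CPM in CH-H2 H-RFI steer 1320, next to 7.31 CPM, and 16.9 CPM in HF-H2 H-RFI steer 1661, next to 6.43 CPM. ZFP36 reached 90.3 CPM in CH-H1 L-RFI steer 1797, next to 59.5 CPM, and 139 CPM in CH-ZG L-RFI steer 310, next to 71.3 CPM. ZC3H12A reached 13.8 CPM in CH-ZG H-RFI steer 1879, next to 6.60 CPM. All 5 were high values, and steer 310 was among the 7 steers sampled under both ZG and H2.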

How the results depend on the processing

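The falls of BTG2 from ZG to H2 kept their call in both breeds under every alternative run. Without TMM scaling, log2 values turned in HF-H1 RFI (BTG2 −0.19, ZC3H12A −0.11, ZFP36 −0.23), and for ZFP36 in H2 minus H1 in HF (−0.30) and HF minus CH in ZG (0.16). Calls were then lost for ZC3H12A in H2 minus ZG in CH (−1.05) and ZFP36 in ZG minus H1 in HF (0.56). Genes called became 529 and 4225 (H2 minus H1 in CH and HF), 39 and 1832 (H2 minus ZG), 1813 (ZG minus H1 in CH), and 2 and 699 (HF minus CH in H2 and ZG). Of these calls the number higher went from 100 of 247 to 27 of 1813 for ZG minus H1 in CH, 47 of 71 to 13 of 49 in HF, 15 of 114 to 10 of 39 for H2 minus ZG in CH, 94 of 721 to 19 of 1832 in HF, 41 of 280 to 15 of 529 for H2 minus H1 in CH, 265 of 1677 to 34 of 4225 in HF, and 130 of 174 to 688 of 699 for HF minus CH in ZG.

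With the 7 libraries added back ZFP36 turned in CH-ZG RFI (0.017) and HF minus CH in ZG (0.025). BTG2 in ZG minus H1 in CH (1.42) and ZC3H12A in H2 minus H1 (−0.77 in CH, −0.60 in HF) lost their calls. Genes called were 44 and 901 (H2 minus H1 in CH and HF), 45 and 229 (H2 minus ZG), 41 and 16 (ZG minus H1), and 8, 4 and 1 (HF minus CH in H1, ZG and H2). With sample quality weights ZC3H12A in H2 minus H1 in CH (−0.56) and ZFP36 in HF (−0.48 for H2 minus ZG, 0.56 for ZG minus H1) lost their calls, and genes called were 457 (H2 minus H1 in CH), 1999 (H2 minus ZG in HF), 136, 875 and 218 (HF minus CH in H1, ZG and H2), 683 (ZG minus H1 in CH) and 3234 (interaction). ZC3H12A in H2 minus H1 in CH was also lost with filterByExpr (−0.70), no filter (−0.74) and unstranded counts (−0.77), as was ZFP36 in H2 minus ZG in HF (−0.57, −0.57 and −0.58). No filter gave 503 calls for H2 minus H1 in CH and 10 for HF minus CH in H2. Unstranded counts called ZFP36 in ZG minus H1 in CH (0.59).

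Without the steer as replicate block, ZC3H12A in H2 minus H1 in CH lost its call (−0.75) and HF minus CH in H2 had 11 calls; no other call of the 3 genes changed. The edgeR quasi-likelihood test without the block lost the same call (−0.58), called ZFP36 in ZG minus H1 in CH (0.77), and called 172 and 995 genes (H2 minus H1 in CH and HF), 479 (H2 minus ZG in HF), 323 (HF minus CH in ZG) and 1 (interaction). For RFI, DESeq2 called 2 genes in CH-H1, 2 in CH-H2 and 1 in HF-ZG, and edgeR's exact test 2 and 1 in CH-H1 and CH-H2. The exact permutation test turned ZC3H12A in CH-H2 (−0.19) and ZFP36 in HF-ZG (0.13) and gave 0.82 for ZC3H12A in HF-ZG at an unadjusted p of 0.0437, higher than the 0.00731 of the quasi-likelihood test.

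Leaving out 1 library, with the weights and steer correlation of the whole fit, gave −0.89 to −0.64 for ZC3H12A in H2 minus H1 in CH (call lost without any 1 of 64 of 104 libraries), −0.69 to −0.47 for ZFP36 in H2 minus ZG in HF (lost without any 1 of H-RFI steers 2071, 5588, 5609 and 5617 and L-RFI steer 2266 of HF-H2, H-RFI steers 1782 and 2242 and L-RFI steers 1668 and 2094 of HF-ZG), 0.59 to 0.82 for ZFP36 in ZG minus H1 in HF (lost without steer 2242) and 0.47 to 0.67 in CH (gained without any 1 of 6 libraries). ZFP36 in HF-ZG RFI ran from −0.42 to 0.23, and BTG2 in HF minus CH in H2 from −0.0084 (without L-RFI steer 718 of HF-H2) to 0.28. In the model of all libraries with 1 left out, a call was judged by the p cutoff of the whole fit, without a new adjustment over genes. A gene close to that cutoff can therefore lose its call by a small rise in p. The cause of these changes was not tested.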
